A study of Homo sapiens with 5 samples.

Results

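The comparison set the YFP-medium fraction against the YFP-low fraction of U2OS cells carrying an inducible E2F1 construct, the middle of 3 steps along the YFP scale. Its members were the 27992 gene names of the authors' count table, read in the YFP-low and the YFP-medium library. These are 2 of the 5 libraries of the series, and all 27992 gene names of the table were kept. Of these genes, 15099 had at least 1 count per 1000000 gene reads (CPM) in 1 or more of the 5 libraries and were analysed. U2OS is a human osteosarcoma cell line. The construct, pTRIPZ-YFP-ER-E2F1, joins a yellow fluorescent protein and the hormone-binding part of the oestrogen receptor to E2F1, is switched on by doxycycline and is activated by OHT (4-hydroxytamoxifen). Cells were kept in DMEM with 8% serum, given 500 ng/ml doxycycline for 48 h and then 90 nM OHT for 20 h, and sorted by flow cytometry on YFP into negative, low, medium and high fractions. Parental U2OS cells without the construct, under the same treatment label, gave the fifth library. All 5 groups thus share the doxycycline and OHT treatment, and each has 1 library, so no difference below has a replicate check. Whether the construct-bearing line is 1 clone, and whether the fractions came from 1 sort, is not given in the labels.

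E2F1 is a transcription factor that, bound to a DP partner, drives genes for DNA synthesis and the start of S phase. In resting cells the retinoblastoma family of pocket proteins holds it in check until cyclin-dependent kinases release it. At high activity E2F1 is also known to switch on genes of apoptosis, among them TP73, APAF1 and BH3-only genes, and the study's title puts the E2F1 level forward as a determinant of which fate a cell takes. Feedback is part of this circuit, since E2F1 acts on its own promoter and on genes of its inhibitors.

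The YFP-low library held 75.9 M gene reads and the YFP-medium library 72.4 M, within the 70.7 M to 76.5 M of all 5. Gene rows took 77.7% and 77.5% of the counted reads, and the scaling factors that adjust for composition were 1.02 and 0.936. The labelled cell type was checked by markers of mesenchymal cells and osteoblasts: their summed level was 3639 CPM in YFP-low and 3538 CPM in YFP-medium, led by VIM and COL1A1, and COL1A2 and BGLAP were nearly absent in both (0.401 and 0.325 CPM for COL1A2, 1 and 4 reads for BGLAP). Leukocyte markers summed to 0.439 and 0.354 CPM, endothelial markers to 1.27 and 0.885 CPM and epithelial markers to 10.1 and 9.74 CPM. CD3E, HBB, KRT19 and CLDN4 had 0 reads in both libraries, which allows up to 0.0388 CPM in YFP-low and 0.0443 CPM in YFP-medium (3 reads). Neuronal markers summed to 92.0 and 85.6 CPM. No analysed member of these marker lists was called, but only 8 mesenchymal, 4 epithelial, 2 endothelial and 5 neuronal markers passed the filter and no leukocyte or erythroid one did, and their part in the results was not tested.

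Because E2F1 binds short GC-rich DNA elements, the stretches upstream of 5 genes named in the results below are shown. They are as RefSeq gives them (GRCh38.p14, the strand of the gene, 5′ to 3′, the 250 bases before the transcript start). Capitals mark the letters TTTCCCGC, TTTCGCGC, TTTGCCGC or TTTGGCGC, or the same letters with a final G in place of the final C, on either strand. E2F1, CDC25A and POLE stand for genes long known to depend on E2F, and MYB and FGFR3 for the 15 genes with the largest rise, chosen from those with a window in the table (NXPH3, SCRT1, HEY1, FOXJ1, SLC16A6 and TOX are named only). CDC25A and POLE did not pass the 2-fold rule given below, and 5 picked stretches say nothing about shares. E2F1 lies at chr20:33686386-33686635 on the minus strand, CDC25A, the phosphatase that activates cyclin-dependent kinase at S phase entry, at chr3:48188418-48188667 on the minus strand, and POLE, the catalytic subunit of DNA polymerase epsilon, at chr12:132687343-132687592 on the minus strand. MYB, a transcription factor of progenitor cells, lies at chr6:135181058-135181307 on the plus strand, and FGFR3, a fibroblast growth factor receptor, at chr4:1793043-1793292 on the plus strand.
E2F1: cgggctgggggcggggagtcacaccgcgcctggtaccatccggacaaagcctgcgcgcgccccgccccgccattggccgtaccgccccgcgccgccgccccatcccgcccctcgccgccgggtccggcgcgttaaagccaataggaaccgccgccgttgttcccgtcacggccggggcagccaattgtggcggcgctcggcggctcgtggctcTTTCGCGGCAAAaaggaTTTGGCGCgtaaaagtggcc
CDC25A: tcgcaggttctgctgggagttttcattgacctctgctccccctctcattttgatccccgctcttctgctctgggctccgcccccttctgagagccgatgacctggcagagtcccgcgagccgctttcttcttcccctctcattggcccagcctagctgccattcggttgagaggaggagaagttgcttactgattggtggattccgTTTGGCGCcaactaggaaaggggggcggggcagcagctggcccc
POLE: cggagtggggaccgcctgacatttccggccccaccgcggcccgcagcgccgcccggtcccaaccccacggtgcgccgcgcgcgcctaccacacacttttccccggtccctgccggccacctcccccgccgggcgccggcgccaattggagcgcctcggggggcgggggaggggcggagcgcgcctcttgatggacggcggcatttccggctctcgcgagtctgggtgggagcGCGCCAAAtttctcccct
MYB: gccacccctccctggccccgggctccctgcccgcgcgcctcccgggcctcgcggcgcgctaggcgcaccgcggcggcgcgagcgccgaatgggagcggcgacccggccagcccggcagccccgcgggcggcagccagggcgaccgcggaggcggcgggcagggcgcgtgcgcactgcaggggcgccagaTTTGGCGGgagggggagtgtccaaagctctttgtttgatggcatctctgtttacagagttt
FGFR3: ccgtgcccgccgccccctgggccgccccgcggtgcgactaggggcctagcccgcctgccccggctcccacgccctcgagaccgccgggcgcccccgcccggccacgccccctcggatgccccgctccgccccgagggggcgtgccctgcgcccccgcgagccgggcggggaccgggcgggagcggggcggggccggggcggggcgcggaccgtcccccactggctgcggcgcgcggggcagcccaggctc
The E2F1 stretch holds 3 matches, of which the first and the second overlap. CDC25A, POLE and MYB hold 1 each, that of MYB in the form with the final G, and FGFR3 holds none of these letters.

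The share of genes with these letters differed between genes higher in YFP-medium and all analysed genes by less than its counting interval. Windows of 300 bases, from 250 before to 50 after a transcript start, could be matched by symbol for 11060 of the 15099 genes. Of the 267 higher genes with a window, 19 held 1 of the 4 first forms, which is 7.12% (exact interval 4.34 to 10.9), against 717 of 11060 analysed genes (6.48%) and 1164 of all 35116 windows of the table (3.31%). With the final G admitted too, a choice made after seeing the data, the shares were 33 of 267 (12.4%, 8.66 to 16.9), 1346 of 11060 (12.2%) and 2174 of 35116 (6.19%). A gene with several windows was counted if any of them matched, while the 35116 are single windows. The last share of each count is therefore not on the same basis as the others. Among genes with 1 window, 10 of 176 higher genes (5.68%) and 420 of 7807 analysed genes (5.38%) held a first form. The windows of higher genes were richer in G and C, with a median of 70.7% against 64.8% over all analysed genes. Among the 15 lower genes with a window, 1 held a first form (6.67%). A match in these letters is a description of the window and not evidence of binding.

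E2F1 itself rose by 2.21-fold between the fractions. Its level was 163 CPM in YFP-low and 361 CPM in YFP-medium, while the parental, YFP-negative and YFP-high libraries held 86.1, 106 and 996 CPM. The counts behind the YFP-low and the YFP-medium value were 12625 and 24478 reads, which gives a ratio of 2.21 (95% counting interval 2.17 to 2.26). The order of the 5 libraries follows the YFP gates, with parental cells lowest. Reads counted per gene name cannot tell transcripts of the construct and of the resident E2F1 gene apart. ESR1, the gene of oestrogen receptor alpha, had 3 reads in YFP-low and 16 in YFP-medium (0.0388 and 0.236 CPM). The parental, YFP-negative and YFP-high libraries held 15, 3 and 25 ESR1 reads (0.190, 0.0360 and 0.391 CPM). Parental cells, which lack the construct, were thus close to YFP-medium, and ESR1 reads did not follow the gates across the 5 libraries. With total gene reads as the scale, which moves the median log2 ratio of all analysed genes by -0.11, the E2F1 ratio was 2.03, and with the deposited TPM 2.09. Intervals here and below cover counting error only, and floors cover only that of the library at 0 reads. Copies made by PCR are not independent molecules, and no second library shows the spread between sorts. In sorted bulk cells, fewer cells that express a gene and less RNA of it per cell cannot be told apart, which holds for every value below.

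Most genes called at 2-fold were higher in YFP-medium, while over all analysed genes 7493 log2 ratios were above 0 and 7603 below. A gene is said to have risen or fallen when its log2 ratio, taken with a pseudocount of 0.5 CPM, passed 2-fold and its counting interval excluded equality. By this rule 407 genes rose (2.7% of the 15099 analysed) and 28 fell (0.185%), so that 93.6% of the 435 called genes (2.88%) were higher in YFP-medium. The bulk of the transcriptome stayed close to a ratio of 1: the median log2 ratio was -0.00, the quartiles were -0.20 and 0.25, and 12397 genes (82.1%) lay within 0.5 of 0. The tails were unequal, with 1839 genes above 0.5 and 863 below -0.5, and with percentiles 1 and 99 at -0.78 and 1.31. With a limit of 1.5-fold, 1450 genes (9.6%) were higher and 536 (3.55%) lower, and with a pseudocount of 2 CPM 235 were higher and 7 lower.

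**Figure D1:**
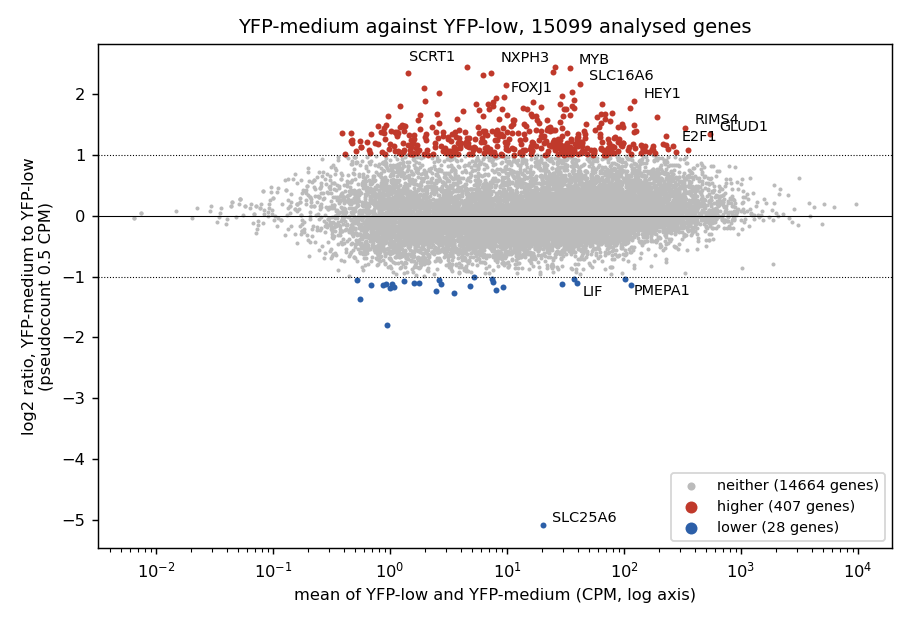
Each point is 1 of the 15099 analysed genes, with the mean of YFP-low and YFP-medium in CPM on a log axis and the log2 ratio of YFP-medium to YFP-low on the other; red points are the 407 higher and blue points the 28 lower genes, and dotted lines stand at 2-fold. The red points reach from weakly to strongly expressed genes, and SLC25A6 lies alone far below the other lower genes.

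The genes that rose covered weak to strong expression, with a median below that of all analysed genes in both libraries. Their median level was 6.93 CPM in YFP-low and 18.0 CPM in YFP-medium, against 21.9 and 22.4 CPM over all analysed genes, and on the deposited per-length scale their median was 5.32 and 12.6 TPM. By mean level, 27 of 1247 genes under 1 CPM rose (2.17%), 164 of 4075 between 1 and 10 CPM (4.02%), 184 of 7155 between 10 and 100 CPM (2.57%) and 32 of 2622 above 100 CPM (1.22%). The share was thus greatest from 1 to 10 CPM and least among the most abundant genes. Of the 407 genes, 304 reached 5 CPM in YFP-low or in YFP-medium, and the pseudocount understates the ratio of the rest. The 28 lower genes had a median of 3.83 CPM in YFP-low and 1.39 CPM in YFP-medium. Transcripts of the higher genes had a median GC content of 53.6% and all analysed genes one of 50.1%, with a value for 92.4% and 91.1% of the genes. After a correction for GC content, added after seeing the data, 373 genes were higher and 25 lower among 13759.

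Among the 15 genes with the largest rise at 5 CPM or more were transcription factor, synapse and lipid enzyme genes. MYB rose by 5.62-fold (5.21 to 6.07), with levels of 10.4 CPM in YFP-low and 58.4 CPM in YFP-medium, while the parental, YFP-negative and YFP-high libraries held 2.90, 3.50 and 147 CPM. Parental and YFP-negative cells held about the same low amount, and YFP-medium held far more than YFP-low. NXPH3, which encodes neurexophilin 3, a secreted ligand of neurexins, measured 7.64 CPM in YFP-low and 43.9 CPM in YFP-medium, while the parental, YFP-negative and YFP-high libraries held 0.520, 2.35 and 139 CPM, a ratio of 5.75 (5.26 to 6.29) at this step. FA2H, the fatty acid 2-hydroxylase needed for the sphingolipids of myelin, measured 7.63 CPM in YFP-low and 41.5 CPM in YFP-medium, while the parental, YFP-negative and YFP-high libraries held 0.0887, 2.01 and 120.5 CPM and rose by 5.44-fold (4.98 to 5.96). Both genes were under 1 CPM in parental cells and passed 40 CPM in YFP-medium. SCRT1, a neuronal repressor of the Scratch family, rose from 1.05 to 7.97 CPM, which is 7.61-fold (6.02 to 9.74). NTRK2, the receptor of the neurotrophin BDNF, went from 3.27 to 16.2 CPM (4.97-fold), and TOX, an HMG-box nuclear factor of lymphocyte development, from 1.76 to 10.8 CPM (6.13-fold).

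A transporter gene, a channel gene, receptor genes and developmental factors were among the other leading genes. SLC16A6, a monocarboxylate transporter gene, measured 14.8 CPM in YFP-low and 68.4 CPM in YFP-medium, while the parental, YFP-negative and YFP-high libraries held 0.139, 4.08 and 170.0 CPM, a rise of 4.62-fold (4.33 to 4.93) at this step, though it overlaps ARSG and the strand of the counting is not known. FOXJ1, the master factor of motile cilia, measured 13.7 CPM in YFP-low and 57.7 CPM in YFP-medium, while the parental, YFP-negative and YFP-high libraries held 0.0254, 1.89 and 90.0 CPM and rose by 4.21-fold (3.94 to 4.51). FOXJ1 was close to absent in parental cells and reached its highest level in YFP-high. HEY1, a repressor downstream of NOTCH, measured 52.0 CPM in YFP-low and 193 CPM in YFP-medium, while the parental, YFP-negative and YFP-high libraries held 1.88, 14.4 and 509 CPM (3.72-fold, 3.59 to 3.85). FGFR3 measured 15.6 CPM in YFP-low and 59.6 CPM in YFP-medium, while the parental, YFP-negative and YFP-high libraries held 2.97, 4.85 and 178 CPM (3.83-fold, 3.59 to 4.09). The remaining genes of this group were GCNT4, which encodes a mucin-type N-acetylglucosaminyltransferase (2.05 to 12.5 CPM), KCNK2, a 2-pore potassium channel gene (3.02 to 13.0 CPM), SKOR1, a SKI-family corepressor gene of neurons (2.97 to 12.3 CPM), TMEM132E (11.6 to 47.1 CPM) and PRRT4 (3.52 to 15.2 CPM). All 15 leading genes were also higher in YFP-high than in YFP-medium in CPM.

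**Figure D2:**
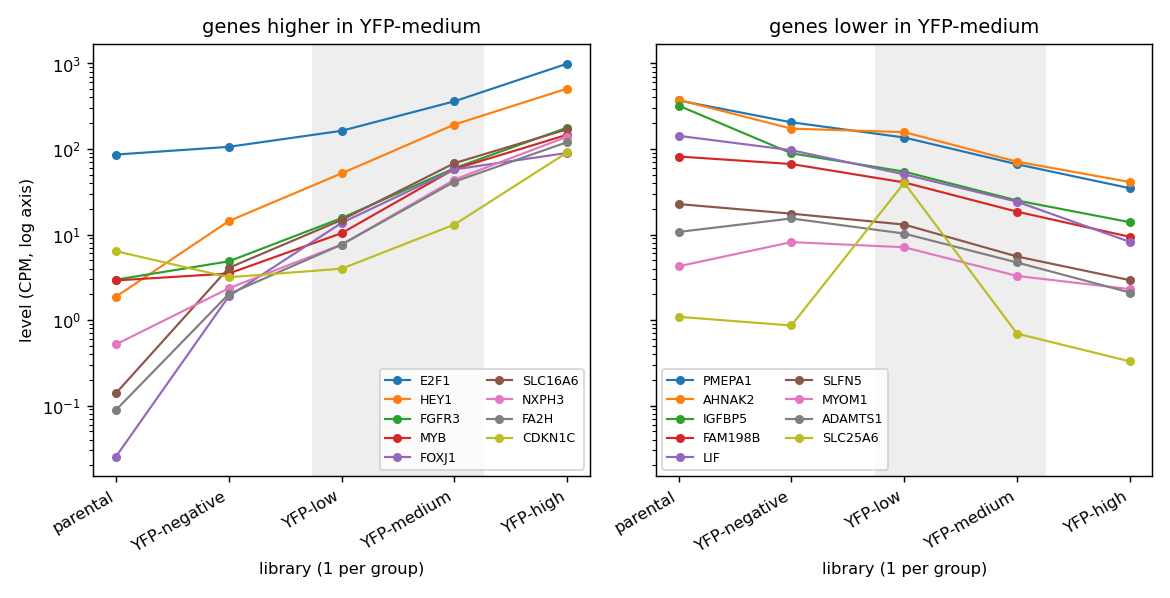
Levels in CPM on a log axis in the 5 libraries (1 per group), for 9 genes that rose and 9 that fell from YFP-low to YFP-medium, the shaded pair; each point is 1 library. HEY1 goes from 52.0 to 193 CPM and FOXJ1 from 13.7 to 57.7 CPM, while SLC25A6 is high in YFP-low alone.

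Ranked by the gain in CPM, other called genes came first. GLUD1, the mitochondrial glutamate dehydrogenase, measured 309.6 CPM in YFP-low and 786 CPM in YFP-medium, while the parental, YFP-negative and YFP-high libraries held 118, 171 and 1550 CPM and rose by 2.54-fold (2.50 to 2.58); its near copy GLUD2 may share reads with it. RIMS4, a relative of the RIM proteins of the presynaptic active zone, measured 178 CPM in YFP-low and 487 CPM in YFP-medium, while the parental, YFP-negative and YFP-high libraries held 41.2, 60.9 and 765 CPM (2.74-fold, 2.69 to 2.80). CBX2, a chromodomain subunit of Polycomb complex PRC1, went from 226 to 479.6 CPM (2.12-fold), and RTN4R, the Nogo receptor of axons, from 93.3 to 289 CPM (3.10-fold). Per length, YFP-medium held 489.9 TPM of GLUD1, 227 TPM of RIMS4, 234 TPM of CBX2 and 348 TPM of E2F1. E2F1 in YFP-low stood at 166 TPM.

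The 28 genes that fell form a short and uneven list. The most abundant were AHNAK2, a giant scaffold protein gene, PMEPA1, a membrane protein gene induced by TGF-beta that restrains it, IGFBP5, an insulin-like growth factor binding protein gene, LIF, the leukaemia inhibitory factor, and FAM198B. PMEPA1 measured 136 CPM in YFP-low and 66.3 CPM in YFP-medium, while the parental, YFP-negative and YFP-high libraries held 369, 205 and 34.8 CPM, 2.05-fold lower at this step (1.98 to 2.13). LIF measured 50.5 CPM in YFP-low and 24.2 CPM in YFP-medium, while the parental, YFP-negative and YFP-high libraries held 143, 96.8 and 8.20 CPM, 2.09-fold lower (1.97 to 2.21). In both genes parental cells held the most and YFP-high the least. IGFBP5 measured 54.3 CPM in YFP-low and 24.98 CPM in YFP-medium, while the parental, YFP-negative and YFP-high libraries held 322, 89.0 and 13.9 CPM, 2.18-fold lower at this step, and AHNAK2 157 CPM in YFP-low and 71.1 CPM in YFP-medium, while the parental, YFP-negative and YFP-high libraries held 376, 173 and 41.1 CPM, 2.21-fold lower. SLFN5, a Schlafen gene, measured 13.1 CPM in YFP-low and 5.53 CPM in YFP-medium, ADAMTS1, a secreted metalloprotease gene, 10.2 and 4.71 CPM, and MYOM1, a sarcomere protein gene, 7.10 and 3.28 CPM. SLFN5, ADAMTS1 and MYOM1 dropped below the 2-fold limit with a pseudocount of 2 CPM, with log2 ratios of -0.87 for ADAMTS1 and -0.79 for MYOM1. LIF overlaps LIF-AS1 and PMEPA1 overlaps NKILA, so that part of their reads may come from the antisense gene.

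Some of the lower genes lie where reads can be placed at more than 1 site. The regions taken as such were the pseudoautosomal regions, the MHC region and 17q21. SLC25A6, the ADP/ATP carrier of the pseudoautosomal region, had 3111 reads in YFP-low and 47 in YFP-medium, and its 5 levels were 40.2 CPM in YFP-low and 0.693 CPM in YFP-medium, while the parental, YFP-negative and YFP-high libraries held 1.09, 0.863 and 0.329 CPM. The YFP-low library stood apart and the other libraries were at about 1 CPM or less, for a gene that most cells use. CRLF2 and CSF2RA of the same region and ABHD16A and ZBTB9 of the MHC region are lower genes too. Together 5 of the 28 lower genes (17.9%) lie in such regions, against 5 of the 407 higher genes (1.23%) and 67 of all analysed genes (0.444%). Without these regions 402 genes were higher and 23 lower. How reads of these regions were placed is not stated in the labels, and its part in these values was not tested.

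Genes of the E2F circuit gave at most 1 call per list at 2-fold. The lists here and below were chosen with earlier results of these data known, so shares beside all genes are a description. With total gene reads as the scale 15 of 53 list medians, all between 0.017 and 0.11 before, fell below 0, so the medians in this range given below carry no direction. Of 10 analysed E2F and DP factors only E2F1 rose, beside 2.7% of all analysed genes. E2F1 is part of the fusion on which the fractions were sorted, so its call follows from the gates and says nothing about the list. E2F2, a fellow activator, was at 61.7 and 117 CPM (log2 ratio 0.92), E2F8, an atypical repressor, at 69.4 and 106 CPM (0.61), and TFDP1, the DP1 partner, at 374 and 523 CPM (0.48). The list's median log2 ratio was 0.16, beside -0.00 over all analysed genes. Of 12 pocket protein, MuvB and MYB genes only MYB rose, with a median of 0.40; the MuvB subunit LIN54 was at 156 and 291 CPM (0.89) and MYBL1 at 64.3 and 108 CPM (0.74). No cyclin or kinase gene of G1 and S phase among 10 was called: CCNE2 was at 161 and 290.4 CPM (0.85), CDC25A at 98.1 and 180.5 CPM (0.88) and CCND3 at 486 and 816 CPM (0.75). The D-type cyclins CCND1 and CCND2 had log2 ratios of -0.61 and -0.82, opposite in sign to CCND3. At 1.5-fold, 3 of 10 E2F and DP factors, E2F1 included, were higher. So were 3 of 12 pocket protein, MuvB and MYB genes and 4 of 10 G1 and S phase genes, of which 3 more were lower. Of all analysed genes 9.6% were higher and 3.55% lower.

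No listed replication or mitosis gene was called at this step. The histone gene HIST1H2BF, outside the list and named after its value was seen, rose from 1.34 to 4.29 CPM. None of 16 licensing genes, 33 replication fork genes, 14 genes of nucleotide supply, 38 mitosis and spindle genes, 12 replication-dependent histone genes and 32 repair genes passed the 2-fold rule, where 2.88% of all analysed genes did. Their median log2 ratios were 0.10, 0.22, 0.04, 0.19, 0.27 and 0.07. At 1.5-fold, 3 fork genes, 2 genes of nucleotide supply, 2 histone genes and 1 repair gene were higher, no licensing and no mitosis gene was called, and 9.6% of all analysed genes were higher. The members farthest from 0 included POLE (238 and 435 CPM, log2 0.87), DSCC1, a sister chromatid cohesion factor (167 and 273 CPM, 0.71), RRM2, the small subunit of ribonucleotide reductase (2476 and 3808 CPM, 0.62), CDT1, a licensing factor (135 and 194 CPM, 0.52), and PRC1, a spindle midzone protein (379 and 547 CPM, 0.53). Kinetochore gene NDC80 was at 244 and 314 CPM (0.36).

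Of the cyclin-dependent kinase inhibitors, 2 of 6 analysed rose, beside 2.7% of all analysed genes, and the median log2 ratio was 0.73, the highest of the lists. CDKN2C, which encodes p18 of the INK4 family, measured 182 CPM in YFP-low and 378 CPM in YFP-medium, while the parental, YFP-negative and YFP-high libraries held 53.5, 61.8 and 494 CPM (2.07-fold, 2.03 to 2.12, at this step). CDKN1C, which encodes p57, measured 3.98 CPM in YFP-low and 13.1 CPM in YFP-medium, while the parental, YFP-negative and YFP-high libraries held 6.38, 3.16 and 91.4 CPM (3.29-fold, 2.88 to 3.76). In CPM, CDKN2C was higher in each fraction than in the one with less YFP, and CDKN1C was higher in parental than in YFP-low cells. The p27 gene CDKN1B was at 127 and 245 CPM (log2 0.94), just under the limit. With total gene reads as the scale CDKN2C and CBX2 fell short of 2-fold (log2 0.93 and 0.96).

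The BH3-only, apoptosome and ASK1 lists held 1 or 2 calls each. At 1.5-fold, 3 of 8 BH3-only, 2 of 14 apoptosome and caspase and 1 of 13 ASK1-list genes were higher. Of these lists only that of the apoptosome and caspases had lower genes, 2 of 14. Of all analysed genes 9.6% were higher and 3.55% lower at 1.5-fold. Of 8 BH3-only genes, whose proteins trigger the mitochondrial pathway, 2 rose, beside 2.7% of all analysed genes. BCL2L11, which encodes BIM, measured 59.6 CPM in YFP-low and 133 CPM in YFP-medium, while the parental, YFP-negative and YFP-high libraries held 41.7, 28.1 and 210.4 CPM (2.24-fold, 2.16 to 2.32), and HRK, named here after its value was seen, went from 1.25 to 3.54 CPM. BBC3, BAD and BID had log2 ratios of 0.28, 0.35 and 0.19. Among 14 apoptosome and caspase genes only APAF1, the core of the apoptosome, rose, with 68.6 CPM in YFP-low and 145 CPM in YFP-medium, while the parental, YFP-negative and YFP-high libraries held 37.7, 38.6 and 296 CPM (2.12-fold, 2.05 to 2.19). With total gene reads as the scale its log2 ratio was 0.96. CASP8, the initiator of the receptor pathway, was at 31.0 and 18.4 CPM (-0.73). MAP3K5, the stress kinase ASK1, was the 1 member of 13 in its list to rise, with 47.9 CPM in YFP-low and 119 CPM in YFP-medium, while the parental, YFP-negative and YFP-high libraries held 9.29, 21.7 and 227 CPM (2.47-fold, 2.38 to 2.57).

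The survival and p53 branches held few calls. None of 8 BCL2 family survival and effector genes was called, with a median of -0.14: BCL2 was at 151 and 260.1 CPM (0.78) and BCL2L1 at 236 and 172 CPM (-0.46). Death receptor genes had the lowest median, -0.34 over 10 genes with no call, TNFRSF1A being at 82.2 and 54.4 CPM (-0.59). Of 9 p53 family and cofactor genes, PPP1R13B, which encodes the p53 cofactor ASPP1, rose from 31.7 to 65.1 CPM, but not with total gene reads as the scale (log2 0.90). TP73, a p53 relative and known E2F1 target, was at 155 and 237 CPM (0.61). None of 29 p53 targets was called and their median was -0.21; PPM1D, a phosphatase that ends the p53 response, was at 162 and 302 CPM (0.89).

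Lists of developmental signalling held several calls each, beside 2.7% of all analysed genes that rose. Of 17 NOTCH pathway genes 3 rose: HEY1, the ligand gene JAG2 and, named after its value was seen, the ligand gene DLL1 (0.685 to 2.30 CPM). JAG2 measured 13.9 CPM in YFP-low and 48.0 CPM in YFP-medium, while the parental, YFP-negative and YFP-high libraries held 6.66, 6.87 and 129 CPM (3.46-fold, 3.23 to 3.71). The ligand gene JAG1 was at 25.8 and 47.3 CPM (0.86) and MAML2, a coactivator, at 9.14 and 4.94 CPM (-0.82), so members lay on both sides of 0. Of 34 WNT pathway genes 4 rose, with a list median of 0.13, 21 log2 ratios above 0 and 13 below. At 1.5-fold 10 of them were higher and 2 lower, beside 9.6% and 3.55% of all analysed genes. NOTUM, which inactivates WNT ligands by removing their lipid, went from 16.5 to 57.9 CPM (3.50-fold, 3.28 to 3.73), and AXIN2, a feedback inhibitor and common WNT target, from 11.7 to 32.0 CPM (2.73-fold, 2.53 to 2.96). The ligand gene WNT3 (6.40 to 14.2 CPM) and the receptor gene FZD5 (36.1 to 72.8 CPM) passed the limit narrowly, with log2 ratios of 0.97 and 0.88 on the total-read scale. WNT3 lies in the 17q21 region, where reads can be placed at more than 1 site, and overlaps LRRC37A2.

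Of the 13 analysed genes of the FGF list, which holds receptors, ligands and Sprouty-type inhibitors, 4 rose, beside 2.7% of all analysed genes. FGFR2 measured 59.5 CPM in YFP-low and 137 CPM in YFP-medium, while the parental, YFP-negative and YFP-high libraries held 29.8, 24.5 and 206 CPM (2.31-fold, 2.23 to 2.39), and FGFR3 was the other receptor gene to rise. The ligand genes that rose were FGF9, from 3.35 to 9.59 CPM, and FGF4, named after its value was seen, from 0.207 to 1.71 CPM. FGF5 was at 34.5 and 22.3 CPM (-0.62), and the list's median was 0.03. Of 27 growth factor receptor and PI3K genes 3 rose: the adaptor gene GAB2 (78.1 to 169 CPM), FLT4, the VEGF-C receptor gene (18.8 to 40.9 CPM), and the forkhead factor gene FOXO1 (17.7 to 36.6 CPM). All 3 lay just under 2-fold on the total-read scale, at log2 0.99, 0.98 and 0.91. In the BMP list of 21 genes, BMP2, an inducer of bone formation, rose from 32.6 to 90.5 CPM (2.78-fold, 2.65 to 2.91), and the osteoblast factor RUNX2 was at 32.9 and 35.1 CPM.

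Cytokine, TGF-beta, YAP and immediate early genes gave values on both sides of 0, and 2.7% of all analysed genes rose and 0.185% fell. Of 11 genes of LIF and IL-6 signalling, LIF fell while JAK2, the receptor-bound kinase, rose from 16.9 to 38.3 CPM and SOCS3, the feedback inhibitor, from 44.8 to 95.6 CPM (2.14-fold). Of 17 TGF-beta and activin genes PMEPA1 fell and FST, which encodes the activin antagonist follistatin, rose from 105 to 219 CPM (2.08-fold). None of 13 genes of the YAP list, which holds targets and also YAP1, WWTR1 and TEAD1 themselves, was called, and the median was -0.18. CTGF was at 432 and 226 CPM (-0.93), ANKRD1 at 289 and 169.7 CPM (-0.76) and CYR61 at 121 and 73.4 CPM (-0.71). F3 went the other way, at 7.83 and 13.6 CPM (0.75). At 1.5-fold 1 of the 13 was higher and 3 were lower, beside 9.6% and 3.55% of all analysed genes. On the total-read scale CTGF passed 2-fold downwards (log2 -1.05), and SOCS3 and FST did not reach it (0.97 and 0.93). Of 21 immediate early genes the orphan nuclear receptor genes NR4A2 (14.2 to 45.4 CPM, 3.20-fold) and NR4A3 (14.7 to 33.2 CPM, 2.26-fold) rose, with a list median of 0.36. MYC was at 102 and 56.7 CPM (-0.84) and not called, and MYCN, named after its value was seen, rose from 0.246 to 1.53 CPM.

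Calls among inflammatory and interferon genes are set beside 2.88% of all analysed genes. None of 19 NF-kB and inflammatory genes passed, with a median of -0.18, and the chemokine gene CCL2 was at 17.3 and 9.30 CPM (-0.86). Of 18 interferon-stimulated genes 3 were called. USP18, which removes ISG15 from proteins, rose from 5.78 to 13.9 CPM, and IRF1, an interferon-induced transcription factor gene, from 20.2 to 40.9 CPM (log2 0.88 on the total-read scale). OASL, an antiviral gene named after its value was seen, fell from 1.37 to 0.354 CPM, and ISG15 and DDX58 had log2 ratios of -0.40 and -0.61.

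Potassium channel and synapse lists held 4 and 5 calls. Their members were chosen with earlier results of these data known, so the shares below are a description. Of 27 potassium channel genes 4 rose (KCNK2, KCNA3, KCNC4 and KCNC1), beside 2.7% of all analysed genes, 12 were higher at 1.5-fold, beside 9.6%, and the median log2 ratio was 0.53. KCNA3, a voltage-gated channel gene of T cells and neurons, measured 8.78 CPM in YFP-low and 27.2 CPM in YFP-medium, while the parental, YFP-negative and YFP-high libraries held 1.58, 4.71 and 101 CPM (3.10-fold, 2.84 to 3.39), and KCNC4 went from 41.7 to 89.2 CPM. KCNC4 fell short on the total-read scale (log2 0.97), and KCNC1, at 2.55 and 6.37 CPM, did so with a pseudocount of 2 CPM (0.88). Of 30 neuronal receptor and synapse genes, again beside 2.7% of all, 5 rose: NXPH3 and, named after their values were seen, GRIK3, a kainate receptor gene (0.607 to 3.01 CPM), DRD5, a dopamine receptor gene (0.439 to 1.84 CPM), CPLX1, a regulator of vesicle fusion (1.41 to 4.23 CPM), and SHISA7 (0.478 to 1.67 CPM). GRIK3, DRD5 and SHISA7 were under 1 CPM in YFP-low and passed the filter only through other libraries. The median of the 30 was 0.09, in the range said above to carry no direction. At 1.5-fold 8 were higher and 3 lower, beside 9.6% and 3.55% of all analysed genes. UNC13A, a vesicle priming gene, was at 28.6 and 15.5 CPM (-0.86), and the general neuronal markers SYP, NEFL and MAP2 had log2 ratios of 0.01, -0.05 and -0.46.

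Of 25 counted ciliary genes only 15 passed the filter. Among these 2 rose, beside 2.7% of all analysed genes, FOXJ1 and the axonemal dynein gene DNAI1, which was named after its value was seen (0.737 to 4.52 CPM). CCNO, a cyclin-like gene of multiciliated cells, was at 50.02 and 94.6 CPM (0.91), and 6 of the 15 were higher at 1.5-fold, beside 9.6% of all. The list's median was 0.10, in the range said above to carry no direction, with 11 log2 ratios above 0 and 4 below. DNAH5, named after its value was seen, had a log2 ratio of -0.57. Of 32 HOX genes HOXA13 (4.34 to 11.8 CPM, 2.73-fold) and HOXD8 (15.7 to 38.6 CPM, 2.46-fold) rose, 9 were higher and 3 lower at 1.5-fold (9.6% and 3.55% of all genes), and the median was 0.06. Of 23 Polycomb and DNA methylation genes only CBX2 rose, while the median was 0.47 and 8 were higher at 1.5-fold (9.6% of all genes), among them the chromobox gene CBX7 (89.8 and 155 CPM). ABCG2, a drug efflux pump gene, and SLC16A6 were the 2 of 19 efflux and carrier genes to rise, ABCG2 with 130.3 CPM in YFP-low and 297 CPM in YFP-medium, while the parental, YFP-negative and YFP-high libraries held 4.51, 32.8 and 437 CPM (2.28-fold, 2.23 to 2.34). SLC16A1, the main lactate carrier gene, was at 939.9 and 1451 CPM (0.63).

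Matrix genes held 1 call and lists of housekeeping functions none. Of 38 matrix and integrin genes, whose median was -0.14, ITGB4, the integrin beta chain of hemidesmosomes, rose, with 32.6 CPM in YFP-low and 105 CPM in YFP-medium, while the parental, YFP-negative and YFP-high libraries held 21.2, 14.2 and 225 CPM (3.22-fold, 3.08 to 3.37). ITGB4 overlaps GALK1. THBS1, a matrix glycoprotein gene, was at 592 and 419 CPM (-0.50) and COL1A1 at 1090 and 944 CPM (-0.21). None of 52 ribosomal protein, 29 ribosome biogenesis, 35 hypoxia and glycolysis, 32 oxidative phosphorylation, 25 autophagy, 27 ATF4, 25 chaperone and 16 housekeeping genes was called, with medians of -0.04, -0.17, 0.08, 0.02, 0.06, -0.02, 0.02 and 0.12. NDRG1, a hypoxia and stress gene at 78.7 and 157 CPM, had a log2 ratio of 0.99 and passed 2-fold with DESeq2 size factors (1.01). FA2H was the 1 call among 29 lipid synthesis genes. Of 14 oestrogen receptor and target genes ESR2 rose, from 4.36 to 9.87 CPM, but not on the total-read scale (log2 0.98).

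**Figure D3:**
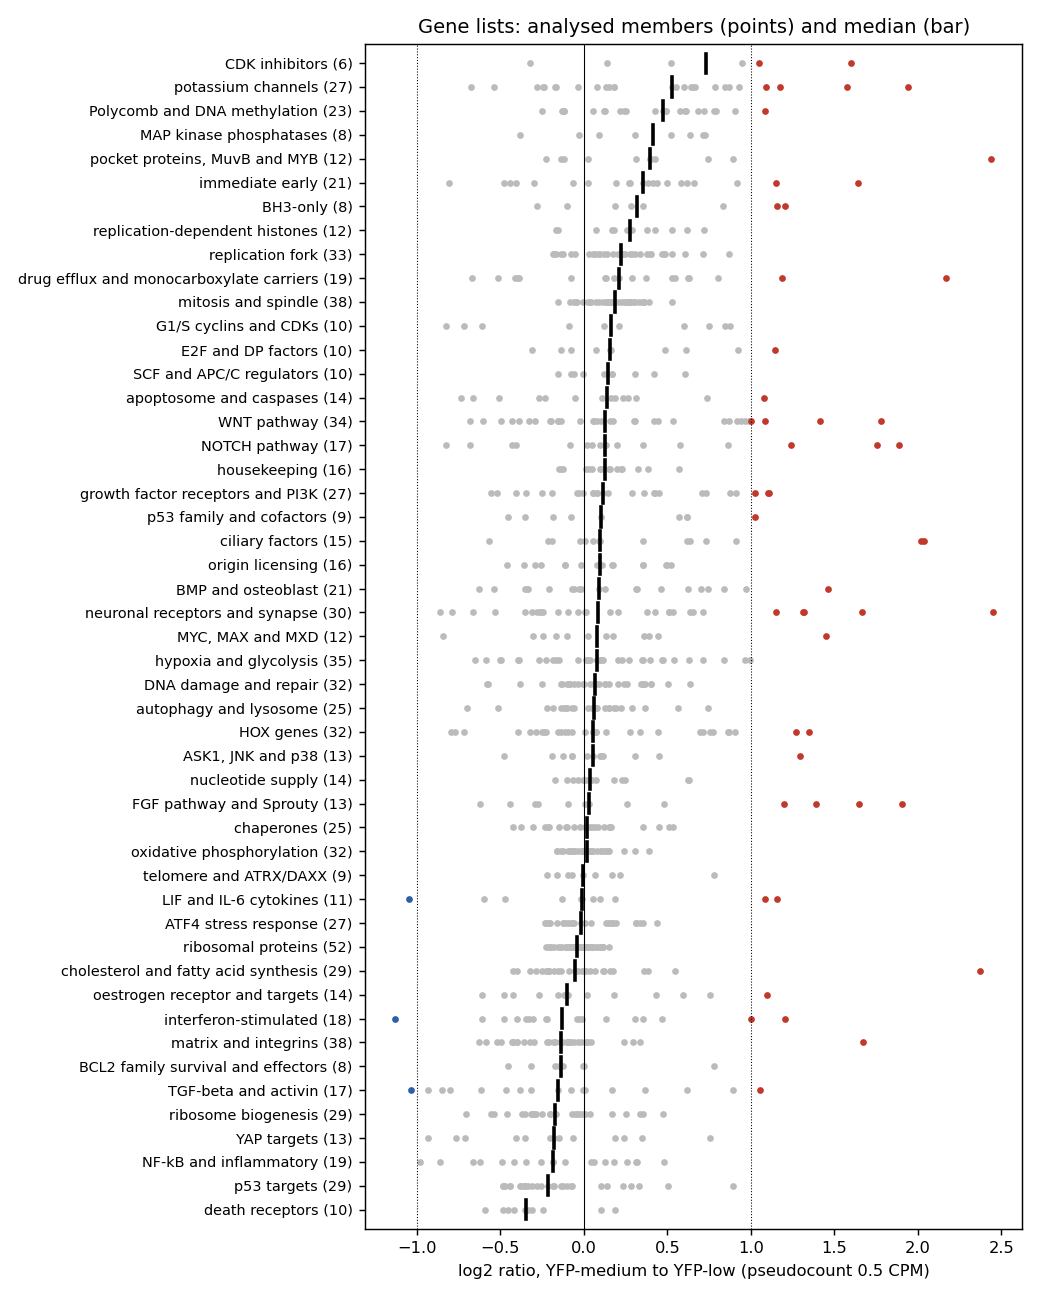
Log2 ratio of YFP-medium to YFP-low for the analysed members of 49 gene lists (number of members in brackets); red points rose, blue points fell, grey points were not called, black bars are list medians and dotted lines stand at 2-fold. Medians run from -0.34 for death receptors to 0.73 for CDK inhibitors, and most calls are single genes far to the right of their list.

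A few genes had reads in 1 of both fractions only. MYOD1, the master regulator of skeletal muscle, had 0 reads in YFP-low and 53 in YFP-medium. Against a floor of 3 reads in YFP-low (0.0388 CPM) this is 20.2-fold higher. Such ratios leave out the counting error of the library that holds reads, so they are not lower bounds. Its levels were 0 CPM in YFP-low and 0.782 CPM in YFP-medium, while the parental, YFP-negative and YFP-high libraries held 0.0380, 0.0599 and 4.73 CPM. YFP-medium was the first fraction with more than a trace of it. CHRM2, a muscarinic acetylcholine receptor gene, had 21 reads in YFP-medium and was 7.99-fold higher against the same floor, and C18orf42, BC035080 and C1QTNF4 had 18, 17 and 17 reads. In the other direction LOC100131551, ILDR1, RTP3, AK098303 and P2RX6P had 0 reads in YFP-medium and 13 to 18 in YFP-low. They were 3.80-fold to 5.26-fold lower against a floor of 0.0443 CPM. In all, 16 genes had 0 reads in YFP-low and over 10 in YFP-medium, 13 showed the reverse, and 5998 had 0 reads in both.

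Nearly all genes that rose at this step were also higher in YFP-high than in YFP-negative, 2 libraries that did not enter the ratio. Both did enter the expression filter and the scaling. Weak genes that passed the filter only through YFP-high favour this overlap, which is a description. Of the 407 higher genes 404 (99.3%, exact interval 97.9 to 99.8) were called higher there, which is 13.2% of the 3062 genes higher in that comparison (20.3% of the 15099). Their median log2 ratio there was 3.24, beside -0.05 over all analysed genes. Of the 1450 genes higher at 1.5-fold in the present step, 96.6% passed 2-fold there. The exceptions, named after their values were seen, were DHRSX of the pseudoautosomal region (0.129 and 2.73 CPM at this step, 0.168 and 0.156 CPM in YFP-negative and YFP-high), the histone gene HIST1H2BF (1.34 and 4.29 CPM, 0.995 and 2.14 CPM) and the non-coding RNA gene RMRP (2.75 and 6.63 CPM, 1.64 and 2.83 CPM). Of the 28 lower genes, 17 (60.7%, 40.6 to 78.5) were lower in YFP-high than in YFP-negative, which is 0.993% of the 1712 lower genes there (11.3%). CSF2RA (0.132 and 0.814 CPM) and FAM203A (3.21 and 9.94 CPM) were higher in YFP-high than in YFP-negative, and were likewise named after their values were seen. Across all 15099 genes the log2 ratios of these comparisons had a Pearson correlation of 0.85, a description across genes that share the annotation and the scaling.

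**Figure D4:**
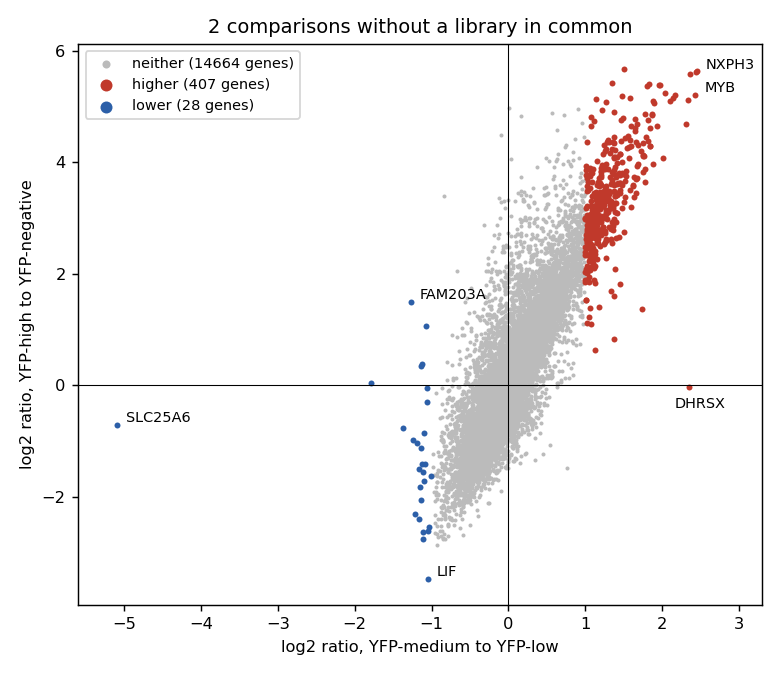
Log2 ratio of YFP-medium to YFP-low against log2 ratio of YFP-high to YFP-negative for the 15099 analysed genes, 1 library per group; red points are the 407 higher and blue points the 28 lower genes of the first ratio. Red points lie above 0 on the second ratio except DHRSX, and the blue points scatter on both sides of 0.

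A minority of the same genes also separated YFP-negative from parental cells. Of the 407 higher genes 36 (8.85%) were called higher in YFP-negative than in parental cells, where 2.17% of all genes were, and 14 (3.44%) lower, where 2.93% were. The 36 are 11.01% of the 327 genes higher in that comparison. Of the 28 lower genes 2 were higher and 5 lower there. Over the 407 genes the median level was 6.93 CPM in YFP-low and 18.0 CPM in YFP-medium, while the parental, YFP-negative and YFP-high libraries had 2.83, 3.38 and 50.7 CPM. For the 28 lower genes the 5 medians, in the same order, were 3.83, 1.39, 3.94, 3.10 and 1.48 CPM. YFP-low and YFP-medium are the values that chose these genes, so their medians are a description.

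Set beside its neighbours on the YFP scale, with which it shares a library each, the step from YFP-low to YFP-medium called 2.88% of the analysed genes. The step from YFP-negative to YFP-low called 319 genes higher and 9 lower (2.17% in all) at an E2F1 ratio of 1.54 (1.498 to 1.582). The step from YFP-medium to YFP-high called 1380 higher and 200 lower (10.5%) at an E2F1 ratio of 2.76 (2.72 to 2.80). Higher genes made up 97.3%, 93.6% and 87.3% of the calls at the 3 steps in the order of YFP. The difference between steps was not tested, since each rests on 1 library a side.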

How the data were processed

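RNA sequencing read counts of 5 U2OS libraries were used, 1 per group. The authors deposited raw counts per gene name and a second table of TPM, in which each gene's reads are divided by its length. Tools listed in the submitters' processing notes, with no role given, are HTSeq 0.6.0, HISAT2 2.0.3, Trimmomatic 0.36, CASAVA 1.8.2 and bcl2fastq, on build hg19. Not given in the sources used here are the gene annotation, the strand setting and the tool behind the TPM values. The unnamed row and the HTSeq classes of reads given to no gene were left out; with them left out, genes held 77.7% of counted reads in YFP-low and 77.5% in YFP-medium.

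Counts were scaled by the trimmed mean of M values in edgeR 4.0.16 (R 4.3.3). Genes with at least 1 CPM of gene reads in 1 of the 5 libraries were analysed. Log2 ratios used a pseudocount of 0.5 CPM, which understates the change of low genes. Folds carry exact 95% Clopper-Pearson intervals without the pseudocount. Calls needed a log2 ratio beyond 2-fold and an interval that excludes equality. With 1 library per group there is no test and no p-value. Genes without reads were set against a floor of 3 reads per library.

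Named genes are E2F1 and ESR1, up to 15 called genes per direction with the interval bound farthest from equality and 5 CPM or more in YFP-low or YFP-medium (13 of the lower genes qualified), the 6 with the greatest change in CPM each way, up to 4 members per list, and 5 genes per direction without reads in 1 library. A few genes that this rule names are not reported here. Others are said to have been named after their values were seen. The members and the 55 lists were chosen with earlier results of these data known. Promoter windows came from RefSeq (GRCh38.p14), matched by symbol for names and letters only. Alternatives were DESeq2 1.42.0 size factors, total gene reads, other filters, a pseudocount of 2 CPM, the deposited TPM and a 1.5-fold rule. The GC correction and the wider motif were added after seeing the data. Scripts ran in Python 3.11.15 with matplotlib 3.10.9, statsmodels 0.14.6, scipy 1.17.1, pandas 2.3.3 and numpy 2.4.6.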

Additional observations from a re-analysis of the deposited data

How the results depend on the processing

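The count of 407 higher genes lay between 284 and 427 with DESeq2 size factors, total gene reads, scaling over the 2 compared libraries, no filter, a filter of 5 CPM, the deposited TPM, the leaving out of 3 regions, or a GC correction. It was 235 with a pseudocount of 2 CPM and 1450 with a 1.5-fold rule. The 28 lower genes became 55 with total gene reads, 13 with the 5 CPM filter, 7 with the larger pseudocount and 536 with the 1.5-fold rule. With total gene reads the median over all genes moved by -0.11 in log2 and 83.8% of calls were higher. TPM shifted it by -0.07 and made 88.5% higher, with 317 higher and 41 lower. The 1.5-fold rule made 73.0% of the calls higher. The E2F1 ratio was 2.03 with total gene reads and 2.09 with TPM, and the overlap with YFP-high against YFP-negative was 96.6% for genes chosen with the 1.5-fold rule. With total gene reads all but 4 of 53 list medians moved by 0.1 or more and 15 changed sign, among them those of p53 family genes (-0.019) and growth factor receptors (-0.0018). Signs changed for 8 medians with TPM, 5 with the 5 CPM filter, among them interferon-stimulated genes (0.13), and 2 with DESeq2 size factors. Of 227 named genes with a ratio, 211 kept their call with total gene reads and none reversed. No paired analysis was possible because each group has 1 library. Leaving out a replicate was likewise not possible, and depth limits genes under a few CPM.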

Other observations

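Outside the lists, further genes passed the 2-fold rule between YFP-low and YFP-medium; those in this paragraph were chosen after their values were seen, and no theme among them was tested. Several encode factors of blood and neural lineages. IKZF1, the Ikaros factor of lymphocytes, rose from 15.7 to 56.2 CPM (3.59-fold, 3.36 to 3.83), its relative IKZF2 from 53.2 to 128 CPM, and TAL1, a factor of blood stem cells, from 2.53 to 6.85 CPM. The early B cell factor genes EBF2, EBF3 and EBF4 reached 6.70, 12.1 and 5.89 CPM in YFP-medium from 1.68, 4.21 and 1.60 CPM. Of the homeobox factors of brain development, OTX1 went from 3.44 to 9.49 CPM and LHX2 from 2.47 to 6.42 CPM. Leukocyte markers summed to 0.439 CPM in YFP-low and 0.354 CPM in YFP-medium.

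Signalling genes outside the lists were among the calls too, again named after their values were seen. PTCH1, the receptor that restrains hedgehog signalling, rose from 22.0 to 46.1 CPM, and HHIP, which binds hedgehog ligands, from 7.16 to 15.9 CPM. SPHK1, a kinase gene of the sphingosine pathway, went from 113 to 238 CPM and SGPP1, a phosphatase gene of the same pathway, from 110.4 to 237 CPM. The calcium channel subunit genes CACNA1B, CACNA1C and CACNA1D went from 2.74, 18.2 and 10.5 CPM to 9.64, 39.1 and 28.7 CPM. CHD7, a chromatin remodeller gene, measured 149.9 CPM in YFP-low and 322 CPM in YFP-medium, while the parental, YFP-negative and YFP-high libraries held 66.1, 81.7 and 453 CPM, 2.15-fold higher in YFP-medium than in YFP-low (2.10 to 2.20).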
